A study of Brassica rapa with 5 samples.

Results

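In leaves of Brassica rapa, a leafy Brassicaceae crop, 229 genes stood at least 2-fold higher after Fe deficiency while staying within 2-fold of the control under Zn deficiency, Zn excess and Cd exposure. They were chosen by these values: tag levels scaled to library size by the authors (TPM, tags per 1000000 clean tags) were compared as the difference in log2 (TPM + 1) from normal supply, among the 10807 genes with a mean of at least 5 TPM over the 5 conditions, out of 29183 genes listed. The share of genes kept that met the whole rule was 2.12%, and the share at least 2-fold higher under Fe deficiency, whatever the other treatments did, was 3.72% (402 genes). The 229 are thus 57.0% of all genes higher under Fe deficiency. Because the rule used all 4 comparisons with the control, the levels and changes below are descriptions, with no test.

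Plants of accession R-o-18 grew in hydroponics for 14 days in solution that held 3 µM Fe and 2 µM Zn but lacked Cd. They then stayed in that solution (normal supply, the control) or spent 7 days with 0.05 µM Fe (Fe deficiency), 0.005 µM Zn (Zn deficiency), 50 µM Zn (Zn excess) or 1 µM Cd (Cd exposure), and the first pair of expanded leaves was taken. Each condition had 3 replicates of 3 plants per the labels, and was deposited as 1 table with the mean of 3 digital gene expression libraries, in which short tags are counted per gene. The libraries held 5575674 to 5997199 clean tags each, and 54.0% to 58.6% of the tags fell in annotated genes. A whole leaf holds many cell types, so fewer cells of a type and less RNA per cell cannot be told apart in these values.

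Iron is a cofactor of the photosynthetic electron transport chain, of haem enzymes and of iron-sulphur proteins, and most of the iron in a leaf is in its chloroplasts. In Arabidopsis, a relative in the same family, shoots short of Fe raise transcripts for basic helix-loop-helix regulators, Fe-chelate handling and long-distance Fe signalling, and lower those for the storage protein ferritin. The deposited tables carry only Bra identifiers, and none of the 29183 was paired with a name in the reference table used here. The members are therefore given by identifier, with no role, and the leaf origin was not checked against marker genes.

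Most of the changes were modest. The median log2 change under Fe deficiency was 1.22 (all genes kept: 0.17), with quartiles of 1.10 and 1.48 and a highest value of 2.46. On the TPM + 1 scale 144 members were 2-fold to under 2.5-fold higher, 49 2.5-fold to under 3-fold, 21 3-fold to under 4-fold and 15 at least 4-fold. Among all genes kept 0.509% (55) were at least 4-fold higher, 40 of them outside the rule. The median level over the members was 9.17 TPM with normal supply, 25.8 at low Fe, 12.9 at low Zn, 10.3 at high Zn and 9.09 with Cd, in the order in which levels are given throughout. Summed over the members, the levels were 5007, 12471, 6153, 5550 and 4373 TPM, so that the Fe deficiency sum was 2.49-fold that of the control. They held 0.876% of the TPM in genes in the control and 2.13% under Fe deficiency.

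**Figure D1:**
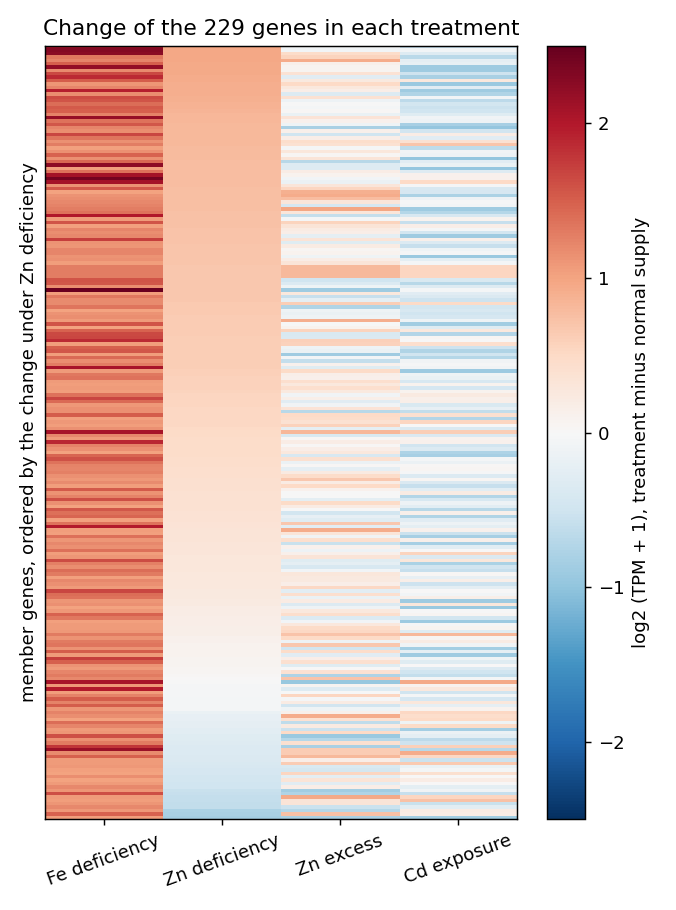
Log2 change against normal supply (colour, log2 of TPM + 1) of each of the 229 members (rows, ordered by the change under Zn deficiency) in the 4 treatments (columns). The Fe deficiency column is above 1 throughout by the rule, the Zn deficiency column is above 0 in 188 rows, and the Cd exposure column is below 0 in 158.

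The error of these values was taken from the difference between the 2 deposited columns, which weight the 3 libraries of a condition differently. The median standard error (SE) of a member's log2 change was 0.23 for Fe deficiency, 0.33 for Zn deficiency, 0.28 for Zn excess and 0.22 for Cd exposure. Against errors of this size many members sat close to a limit of the rule. The change under Fe deficiency was within 1 SE of the 2-fold threshold in 121 of 229 members, and over 2 SE above it in 51. A change in another treatment was within 1 SE of its 2-fold limit in 114 members, in 86 of them under Zn deficiency. In 49 members no value lay within 1 SE of a limit. Measured from 0, the Fe deficiency change was at least 2.74 SE in every member. The choice by size largely fixed this, so it lends the changes no support.

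The general level of the Fe deficiency table also bears on membership. The median of all genes kept was 0.17 higher there than in the control, and median-of-ratios size factors remove a shift of 0.18. With them the members' median change was 1.05, and 140 genes met the rule, 131 of them among the 229.

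The gene with the largest change was Bra019265. It stood at 4.80 TPM with normal supply (83 tags over the 3 libraries, 95% exact Poisson interval 3.82 to 5.95 TPM, counting error only), 30.9 at low Fe (551 tags, 28.4 to 33.6 TPM), 8.24 at low Zn, 2.12 at high Zn and 4.57 with Cd. The level under Fe deficiency was 6.45-fold that of the control (log2 change 2.46, SE 0.39) and 3.75-fold that of the next condition, Zn deficiency. Of all members this was the widest margin over the next condition.

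Bra039099 had a similar profile, with 3.97 TPM with normal supply, 25.2 at low Fe, 7.49 at low Zn, 3.74 at high Zn and 4.39 with Cd (log2 change under Fe deficiency 2.39, SE 0.35). Bra014665, the member with the lowest control level, had 2.57, 16.5, 6.02, 2.43 and 2.41 TPM in the same order (log2 change 2.30, SE 0.40). Both were second highest under Zn deficiency, with log2 changes of 0.77 (SE 0.46) and 0.97 (SE 0.48), and lay near the control level in the remaining treatments. With a plain ratio of TPM, Bra014665 was 2.34-fold higher under Zn deficiency, and it met the rule because 1 TPM is added to each level first.

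Bra006239 was the most abundant of the 6 members with the largest change. It had 19.1 TPM with normal supply, 95.5 at low Fe, 38.4 at low Zn, 26.6 at high Zn and 15.1 with Cd. Its 1673 tags under Fe deficiency put the counting interval at 90.9 to 100.2 TPM, and the log2 change was 2.26 (SE 0.25). Bra009871 had 4.61, 25.4, 8.61, 3.49 and 3.99 TPM (log2 change 2.24, SE 0.34). Bra022030 had 5.76, 30.1, 12.0, 6.09 and 2.67 TPM, with a log2 change of 2.20 (SE 0.42) under Fe deficiency and -0.88 (SE 0.46) under Cd exposure. All 6 genes were highest under Fe deficiency and second highest under Zn deficiency. With a plain ratio of TPM to the control, more of them passed 2-fold in another treatment, as Bra014665 did. Bra019265 had 0.443 under Zn excess and Bra006239 2.01 under Zn deficiency. Bra022030 had 2.09 under Zn deficiency and 0.463 under Cd exposure. Bra039099 and Bra009871 stayed within 2-fold on this scale too. Fractional tags in Bra014665, Bra009871 and Bra022030 show that some of their tags were divided with other genes.

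The most abundant members had another order of conditions. Bra013246 had 507 TPM with normal supply, 1129 at low Fe, 371 at low Zn, 430 at high Zn and 511 with Cd. Fe deficiency was 2.23-fold above the control (log2 change 1.15, SE 0.17), and Zn deficiency lay below the control (log2 change -0.45, SE 0.27). Bra037115 had 271, 756, 154, 452 and 308 TPM, so that it was lowest under Zn deficiency (log2 change -0.81, SE 0.31) and second highest under Zn excess (0.74, SE 0.25). Tags of both were partly shared with other genes. Bra034245 had 201, 403, 339, 374 and 149 TPM, and its Fe deficiency level was only 1.08-fold that under Zn excess, a difference smaller than the errors of the 2 levels. These 3 genes held 18.4% of the members' TPM under Fe deficiency.

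**Figure D2:**
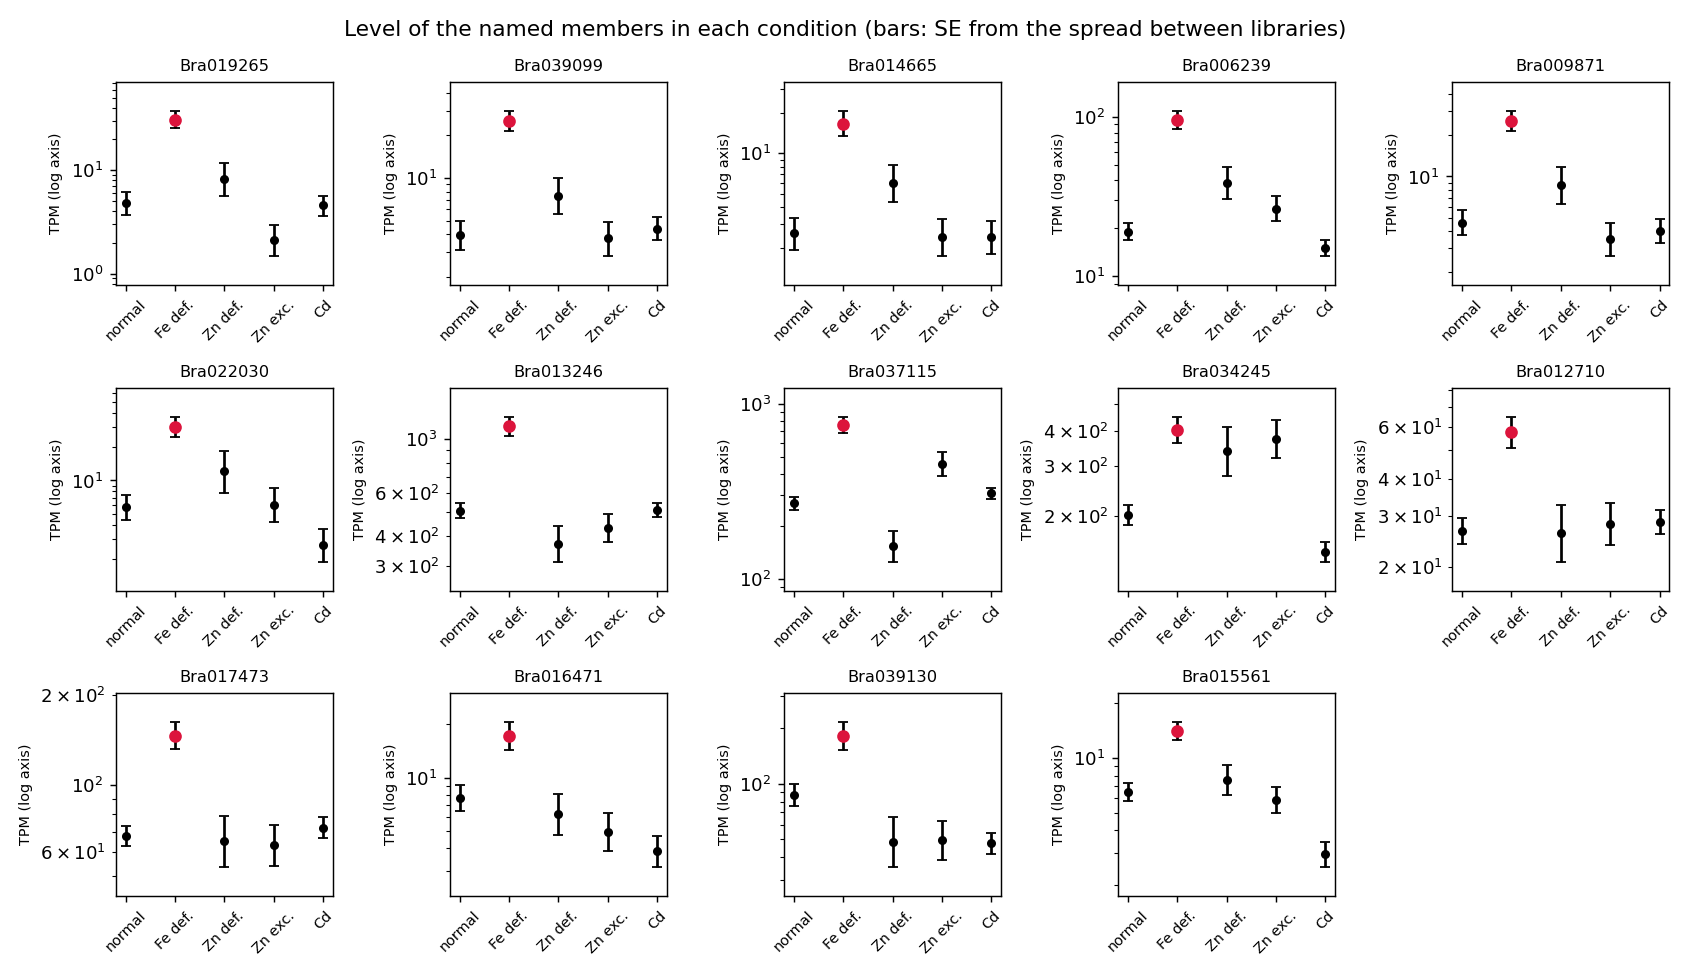
Level (TPM, log axis) of 14 members in the 5 conditions. Points are the deposited means of 3 libraries, with Fe deficiency in red, and bars are 1 SE from the spread between libraries. In Bra019265 the Fe deficiency point (30.9 TPM) is far above the other 4, whereas in Bra034245 it (403 TPM) overlaps Zn excess (374 TPM) and Zn deficiency (339 TPM).

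The members with the smallest differences in the other treatments were Bra012710 and Bra017473. Bra012710 had 26.6 TPM with normal supply, 57.5 at low Fe, 26.1 at low Zn, 28.1 at high Zn and 28.5 with Cd (log2 change under Fe deficiency 1.08, SE 0.23). Bra017473 had 67.7, 146, 65.0, 63.1 and 72.2 TPM (log2 change 1.10, SE 0.18). In these 2 genes no other treatment differed from the control by more than 0.10 on the log2 scale, less than its SE.

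Which condition came second differed across the members. Zn deficiency was next highest in 148 of 229, Zn excess in 47, Cd exposure in 21 and the control in 13. The lowest condition was Cd exposure in 130, Zn excess in 44, the control in 33 and Zn deficiency in 22. The same counts were not made over all genes kept, so these describe the members only. The median level of all genes kept was itself lowest with Cd, at 12.9 TPM. It was 13.8 TPM with normal supply, 15.9 at low Fe, 14.1 at low Zn and 14.5 at high Zn. The Fe deficiency level was 1.71-fold the next highest level in the median member, with quartiles of 1.45 and 2.11 and a range of 1.08 to 3.75. It was at least 2-fold the next highest in 73 members and under 1.5-fold in 72. In 21 members the gap to the next condition was smaller than its SE, and in 135 it was larger than 2 SE. Fe deficiency is the highest condition of every member by the rule, but its margin over the next one was under 2-fold in most.

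Set directly against each other condition on the TPM + 1 scale, Fe deficiency was at least 2-fold higher than Zn deficiency in 93 members (3.16% of all genes kept). It was so against Zn excess in 147 (3.74% of all genes kept) and against Cd exposure in 195 (9.78% of all genes kept). The rule puts Fe deficiency above each of these treatments in every member, so an excess over all genes kept follows from the choice. The median differences were 0.86, 1.17 and 1.5 on the log2 scale. All 4 other conditions were exceeded 2-fold in 66 members. Among all genes kept, 82 (0.759%) met that condition, so 16 genes did so outside the rule.

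**Figure D3:**
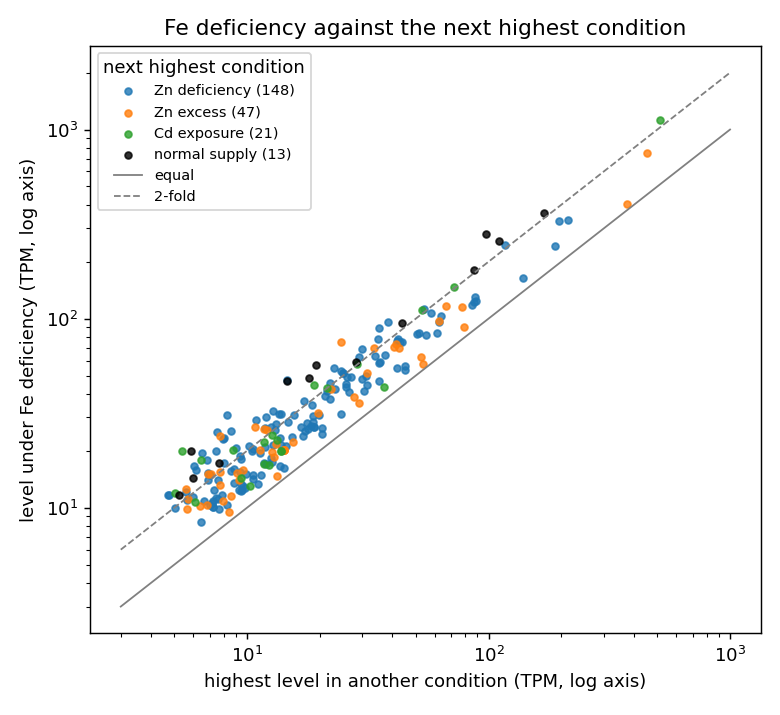
Level of each member under Fe deficiency against its highest level in any other condition (TPM, log axes), coloured by that condition. The solid line marks equal levels and the dashed line a 2-fold difference, with 73 of 229 members at or above the dashed line.

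Examples of the 4 classes, chosen after their values were seen as the largest Fe deficiency change in each, were Bra019265 for Zn deficiency and 3 more. Bra016768, with Zn excess next, had 4.59 TPM with normal supply, 23.9 at low Fe, 3.42 at low Zn, 7.69 at high Zn and 2.43 with Cd (log2 change 2.16, SE 0.24). Bra032370, with Cd exposure next, had 4.05, 20.1, 4.01, 1.61 and 8.78 TPM (log2 change 2.06, SE 0.31). Its log2 changes of -0.95 (SE 0.33) under Zn excess and 0.96 (SE 0.30) under Cd exposure lay just inside the limits on opposite sides. As plain ratios of TPM to the control they were 0.398 and 2.17, outside 2-fold. Bra011299, with the control next, had 5.84, 19.9, 4.57, 2.58 and 4.75 TPM (log2 change 1.61, SE 0.25) and was lower than the control in each of the other 3 treatments. Its plain ratio under Zn excess was 0.443, also outside 2-fold.

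Within the 2-fold limits the members leaned one way under 2 treatments. Under Zn deficiency 188 of 229 (82.1%) lay above 0, against 49.0% of all genes kept, and 113 lay above 0.5, against 14.1%. The median was 0.49 (all genes kept: -0.01). Under Cd exposure 158 members (69.0%) lay below 0, against 57.6% of all genes kept, and 61 (26.6%) lay below -0.5, against 16.3%. The median was -0.23 (all genes kept: -0.07). Under Zn excess 131 members (57.2%) lay above 0, close to the 59.0% of all genes kept, with a median of 0.12 (0.07). With size factors 187 members lay above 0 under Zn deficiency (48.6% of all genes kept) and 142 below 0 under Cd exposure (49.8% of all genes kept). The rule bounded these changes and all of them share 1 control table, so the counts describe the members only.

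The commonest combination was above 0 in both Zn treatments and at or below 0 under Cd exposure, in 77 members (33.6%, against 21.8% of all genes kept). Next came above 0 under Zn deficiency and at or below 0 in the other 2, in 61 members (26.6%, against 10.8%). All 3 changes were above 0 in 33 members (14.4%, near the 12.7% of all genes kept), and all 3 were at or below 0 in 13 (5.68%, against 14.8%). The lean under Zn deficiency was present in all 3 ranges of abundance. Among the 76 members with a mean of 5.11 to 9.23 TPM the median Zn deficiency change was 0.58, among 76 of 9.53 to 22.2 TPM 0.51, and among 77 of 22.4 to 590 TPM 0.39, with 64, 66 and 58 of them above 0. The medians of all genes kept in the same ranges lay between -0.05 and 0.03. Under Cd exposure the members' 3 medians were -0.12, -0.14 and -0.29, against -0.10, -0.09 and -0.02 for all genes kept, so that they were close in the lowest range and furthest apart in the highest.

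The spread between libraries was not used by the rule. It was read as a library contrast, a signed percentage of the gene's level that is 0 when the 3 libraries hold equal shares, negative when the library with the lowest total holds more of the gene than the larger ones and positive when it holds less. In the control the median contrast of the members was -18.8% (quartiles -37.4% and -1.21%), against 0.59% (-12.4% and 13.8%) for all genes kept, and 175 of 229 members (76.4%) lay below 0, against 48.8%. Under Fe deficiency the members lay the other way, with a median of 9.70% (all genes kept: -1.96%) and 81 below 0 (35.4%, against 53.5%). Under Zn deficiency the median was -19.9% (-3.78%), with 166 below 0 (72.5%, against 54.2%). Under Zn excess and Cd exposure the members' medians of 1.15% and 4.26% were below those of all genes kept, 6.32% and 6.53%. In Zn deficiency, Zn excess and Cd exposure the library of middle size counts for only 1.56% to 7.52% as much as the largest one, so most of its own deviations do not show.

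**Figure D4:**
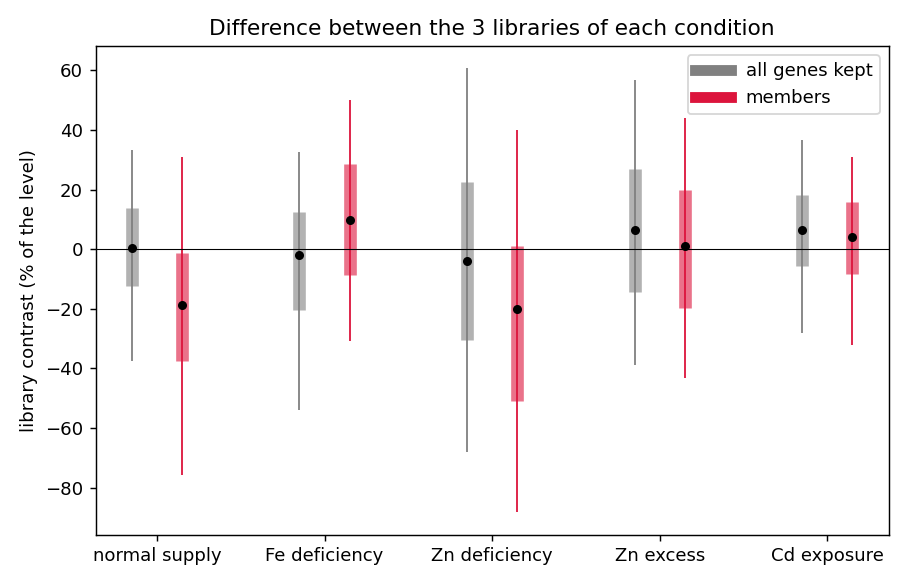
Library contrast (percent of the gene's level) in each condition for the 229 members (red) and all 10807 genes kept (grey). Dots are medians, thick bars quartiles and thin lines the central 90% of genes. The members lie below 0 in the control (median -18.8%) and under Zn deficiency (-19.9%), and above 0 under Fe deficiency (9.70%).

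In the control and under Fe deficiency the contrast also bounds the share of a gene's tags that lay in the lowest-total library, which held 32.2% and 32.0% of clean tags. For Bra022030 that library held 63.2% to 68.5% of the control tags and 16.6% to 23.7% of the Fe deficiency tags. For Bra014665 the shares were 59.7% to 65.5% and 10.7% to 18.3%, and for Bra019265 49.8% to 57.0% and 8.49% to 16.3%. In these 3 genes 1 control library thus carried a larger part of the tags than its size would give, and the lowest-total Fe deficiency library a smaller one. A share of at least 50% in that control library was found in 8 of 229 members, against 0.657% of all genes kept. Their median change under Fe deficiency was 1.87, against 1.21 in the other 221. Their median control level was lower, at 5.92 TPM against 9.51. The rule chose the members by the Fe deficiency change, and the difference was not tested.

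The members with the largest contrast under Fe deficiency ran in the opposite direction. Bra016471 had 7.68 TPM with normal supply, 17.2 at low Fe, 6.22 at low Zn, 4.97 at high Zn and 3.85 with Cd, with a log2 change of 1.07 (SE 0.33). The lowest-total Fe deficiency library held 52.3% to 56.4% of its tags. Bra039130 had 87.3, 181, 48.2, 49.4 and 47.5 TPM (log2 change 1.05, SE 0.32), and 50.8% to 55.0% of its Fe deficiency tags lay in that library. It was lower than the control in all 3 other treatments, with log2 changes of -0.84 (SE 0.48), -0.81 (SE 0.39) and -0.86 (SE 0.27). Both have fractional tags.

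The lean under Zn deficiency and Cd exposure went with the control contrast. Among the 175 members with a control contrast below 0, 156 (89.1%) lay above 0 under Zn deficiency, against 55.3% of all genes kept with such a contrast. Of the same 175, 130 lay below 0 under Cd exposure, against 65.8% of those genes kept. The members' median changes were 0.56 and -0.26. Among the other 54, 32 (59.3%) lay above 0 under Zn deficiency, against 43.1% of the remaining genes kept. Of these 54, 28 lay below 0 under Cd exposure, against 49.7% of the remaining genes kept. Their medians were 0.25 and -0.04. The median Fe deficiency changes of the 175 and the 54 were 1.23 and 1.18. The rule chose all members by this change, so the likeness of these medians says nothing about the control libraries. The part of the control libraries in these leans was not tested.

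The sets that share the Fe deficiency increase but leave the limits elsewhere, read from the same tables, had control contrasts further from 0 or nearer to it. The 94 genes also at least 2-fold higher under Zn deficiency had a median control contrast of -49.3%, and the 74 genes at least 2-fold lower under Cd exposure one of -57.5%. The 44 genes also higher under Zn excess had -7.09%, and a median Fe deficiency change of 2.44. The first 2 sets had median Fe deficiency changes of 1.54 and 1.42. These sets overlap, as only 173 genes higher under Fe deficiency were not members, so their values are not separate observations. These differences from the members were not tested.

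Tags shared between genes were found in 94 members (41.0%), against 37.4% of all genes kept. The 135 members without them had a median Fe deficiency change of 1.23 and the 94 with them 1.22. Both groups were chosen by this change, so the likeness of the medians says nothing about shared tags. Bra019554, Bra034870 and Bra037722 had identical tag numbers in all 5 tables (7.68, 20.1, 12.9, 14.2 and 11.6 TPM in the usual order), so they are 1 measurement listed 3 times, and the 229 members are 227 distinct profiles. Such identity is not particular to the members: among the 10807 genes kept, 159 had tag numbers identical to another gene. A further 7 pairs of members had consecutive identifiers, 5 of them with fractional tags in both genes. These genes were picked out after their values were seen. Among all genes kept, 29.9% had the next identifier kept too, but that share depends on the size of the set. Such pairs were not counted in other sets of 229 genes. Bra032510 and Bra032511 were nearly alike, at 71.2 and 73.4 TPM under Fe deficiency and 33.7 and 34.1 TPM in the control, with shared tags. Bra032370 and Bra032371 had no fractional tags. Bra032371 had 12.1 TPM with normal supply, 44.3 at low Fe, 9.38 at low Zn, 6.49 at high Zn and 18.9 with Cd, the same order of conditions as Bra032370. In Bra032370 the order of the control and Zn deficiency is not resolved (log2 change -0.01, SE 0.42).

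At the 2-fold threshold the rule divided genes that hardly differed. Bra015561 was the last gene inside, with 6.52 TPM with normal supply and 14.0 at low Fe (log2 change 1.00, SE 0.21), after Bra034245 (1.00, SE 0.19). Bra039845, with 20.7 and 42.4 TPM (1.00, SE 0.23), and Bra034676, with 3.61 and 8.22 TPM (1.00, SE 0.27), were the first outside. The distance of each from the threshold was far below its SE.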

How the data were processed

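Per the file headers, each deposited table holds 2 values per gene, its clean tags and its TPM. From the values, the tags are expected counts averaged by the authors over 3 libraries, with 77.0% to 78.5% of them a whole number divided by 3 (within 0.0001 tag, or wider above 10 tags), and the TPM is each library's tags per 1000000 clean tags, averaged likewise. How tags were mapped, and to which build, is not given in the sources used here. Genes that a table does not list were set to 0. Library totals were recovered from genes with 0.333 tag, whose TPM took 3 common values per condition. The library contrast is the difference between the tags and those the TPM would give at the mean total, scaled to a relative standard deviation between the 3 libraries. Squared contrasts, divided by their trend on level in each condition, were averaged over the 5 conditions and moderated over all genes (limma 3.58.1 squeezeVar in R 4.3.3, 12.0 degrees of freedom), which gave the SE. A gene with more spread in 1 condition than in others has too small an SE there. The steps were also run on simulated data in which the spread between libraries was independent between genes. The members' contrasts lean together here, so that run cannot show whether the SE suits them. Whether the replicates came from separate cultures is not stated. Counting intervals cover counting error only.

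No test was made, since each condition is 1 table and the rule used every comparison. Members and summaries were chosen with earlier results of these data known. The named genes were the 6 members with the largest change, the 3 most abundant under Fe deficiency, the 2 with the smallest changes elsewhere, the 2 with the largest contrast under Fe deficiency, and the 2 nearest to the threshold on each side. Those described as picked out later are exceptions. Gene and marker lists set by symbol could not be used, as no identifier had a name. Alternatives were another pseudocount, filter, scaling, column, fold and limit.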

Additional observations from a re-analysis of the deposited data

How the results depend on the processing

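Of 229 members, 205 also met the rule with a pseudocount of 0.1 (245 genes in all) and 117 with one of 5 (160 in all), and 228 did when the tag column was used in place of the TPM (234 in all). The number moved by over 1.5 times under 7 settings. It was 140 with size factors (131 of them among the members), 83 with a minimum mean of 20 TPM, 415 with no filter on low values, 135 among genes without fractional tags, 15 at 4-fold under Fe deficiency and 88 with the other treatments held within 1.5-fold. It was 82 when Fe deficiency had to exceed each other condition 2-fold, a setting chosen after seeing the data, as was counting identical profiles once (227). For the size factors, a shift of 0.18 removed from the Fe deficiency table lowers every change there. The other settings keep fewer or more genes by construction. The members' median Fe deficiency change ranged from 1.01 (pseudocount 5) to 1.30 (pseudocount 0.1). None of 56 values of 14 named members under 4 settings changed sign. The choice by size largely fixed this, so it lends no support. Of the 56 values, 54 stayed within 1 SD between libraries, a wider measure than the SE given elsewhere. The exceptions were Bra039099 (1.75) and Bra014665 (1.51) with a pseudocount of 5. Staying within 1 SD did not keep a gene in the rule. With size factors Bra013246 (0.97), Bra034245 (0.82), Bra012710 (0.91) and Bra017473 (0.92) fell below the 2-fold threshold. So did Bra016471 (0.90), Bra039130 (0.87) and Bra015561 (0.83). With a pseudocount of 5, Bra034245 (0.99), Bra012710 (0.98), Bra016471 (0.81) and Bra015561 (0.72) were below it. The tag column put Bra015561 at 0.999. No paired analysis was possible because the tables hold means over the 3 libraries, so no single replicate could be dropped either. Depth limits the low members most: 83 control tags of Bra019265 leave 3.82 to 5.95 TPM.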
